A study of Mus musculus with 12 samples.

Results

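The clustered histone genes are the genes for the core histones H2A, H2B, H3 and H4 and for the linker histone H1 that lie together in a few groups in the mouse genome. They were taken as the genes whose symbol begins with *Hist1h* to *Hist4h*, with pseudogene symbols (-ps) left out, and for which the array carries a probe set assigned to 1 symbol (the brightest, where a gene had several). The probe gene table holds current symbols, so that only 3 matched in that form, and the others were matched through the older symbols listed by RefSeq, for example *Hist1h2af* for *H2ac10*. This gave 28 of the 30077 genes measured: 5 H1, 10 H2A, 8 H2B, 3 H3 and 2 H4 genes, with 22 of them on chromosome 13 and 6 on chromosome 3. RefSeq lists 68 such genes. The other 40 had only probe sets assigned to several genes, which are described by class after the 28. *H2ac14* (*Hist1h2aj*) is kept by the rule, although RefSeq annotates it as a pseudogene.

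The genes were measured in 3T3-L1 cells, a line of mouse preadipocytes that turn into lipid-storing adipocytes after induction with dexamethasone, IBMX and insulin. The long non-coding RNA *Paral1* was targeted with 100 nM siRNA (Paral1-siRNA), and control cells received the same amount of a control reagent (Ctrl-siRNA). Transfection took place at D0 with collection in differentiating cells at D2, or, after detachment of the differentiated cells, at D7 with collection in mature adipocytes at D9. Each of the 4 groups held 3 Affymetrix Mouse Transcriptome Array 1.0 arrays. Experiments 1, 2 and 3 gave the D2 arrays and experiments 4, 5 and 6 the D9 arrays, with 1 Ctrl-siRNA and 1 Paral1-siRNA array per experiment. D2 and D9 cells therefore differ in day, in the way they were transfected and in the experiment, and these cannot be told apart. Which of 2 siRNAs was used is not settled, since the reagent in the labels is Paral1/2-siRNA in the methods, while the text of the paper names Paral1/1-siRNA as the one chosen. *Paral1* itself was not analysed here, so that silencing was not checked on these arrays. The values are the log2 expression values deposited by the authors, and a level is not compared between probe sets.

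Cells make the bulk of their histones during S phase, when replicated DNA has to be packed into new nucleosomes. The clustered genes serve this need: they have no introns, and their mRNAs end in a stem-loop bound by SLBP in place of a poly(A) tail. Paired copies of H2A, H2B, H3 and H4 form the nucleosome core, and H1 binds the DNA between cores. Histone mRNA falls when replication stops, while a few clustered genes, among them *H1f2* (*Hist1h1c*) and *H2bc21* (*Hist2h2be*), are known to give polyadenylated mRNA in cells that no longer divide. 3T3-L1 cells go through a round of division early after induction and then leave the cell cycle. The arrays were made from total RNA, so mRNA without a poly(A) tail was included.

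The promoters of these genes share short elements. They are shown for 6 genes on which the comparison of days turns, as the 250 bases before and 50 bases after the transcript start in RefSeq (build GRCm38.p6), 5′ to 3′ on the strand of the gene. Capitals mark 4 motifs, each searched on both strands. The TATA box was searched as the letters TATAAA, and the box bound by the factor NF-Y as CCAAT. The octamer known from H2B promoters, which is bound by POU2F1, was searched as ATTTGCAT. The AC box known from promoters of H1 genes was searched as AAACACA. *H2ac10* (chr13:23533625-23533924, plus strand) and *H2ac15* (chr13:21753863-21754162, minus strand) are H2A genes, *H2bc18* (chr3:96269450-96269749, plus strand) and *H2bc12* (chr13:22035571-22035870, plus strand) are H2B genes, and *H1f5* (chr13:21780576-21780875, minus strand) is an H1 gene. All 5 are among the genes with the largest falls between days. *H1f2* (chr13:23738557-23738856, plus strand), an H1 gene that did not fall, is shown against *H1f5*.
H2ac10: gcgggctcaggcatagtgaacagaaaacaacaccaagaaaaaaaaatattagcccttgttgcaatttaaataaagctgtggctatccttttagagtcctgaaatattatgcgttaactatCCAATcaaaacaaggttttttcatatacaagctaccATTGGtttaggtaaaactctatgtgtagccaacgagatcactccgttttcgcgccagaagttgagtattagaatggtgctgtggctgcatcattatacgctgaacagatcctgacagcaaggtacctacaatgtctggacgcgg
H2ac15: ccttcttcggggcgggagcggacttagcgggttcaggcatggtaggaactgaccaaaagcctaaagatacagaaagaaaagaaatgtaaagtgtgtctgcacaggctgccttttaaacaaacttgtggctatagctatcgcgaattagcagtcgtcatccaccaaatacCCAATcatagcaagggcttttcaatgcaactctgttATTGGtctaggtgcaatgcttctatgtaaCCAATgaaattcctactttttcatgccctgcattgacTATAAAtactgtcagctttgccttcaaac
H2bc18: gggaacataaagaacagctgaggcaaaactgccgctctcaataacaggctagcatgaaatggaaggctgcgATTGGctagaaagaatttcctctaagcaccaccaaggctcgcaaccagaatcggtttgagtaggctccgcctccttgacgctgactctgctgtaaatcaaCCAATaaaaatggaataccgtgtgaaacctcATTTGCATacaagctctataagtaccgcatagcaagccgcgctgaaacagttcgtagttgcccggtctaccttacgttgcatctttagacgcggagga
H2bc12: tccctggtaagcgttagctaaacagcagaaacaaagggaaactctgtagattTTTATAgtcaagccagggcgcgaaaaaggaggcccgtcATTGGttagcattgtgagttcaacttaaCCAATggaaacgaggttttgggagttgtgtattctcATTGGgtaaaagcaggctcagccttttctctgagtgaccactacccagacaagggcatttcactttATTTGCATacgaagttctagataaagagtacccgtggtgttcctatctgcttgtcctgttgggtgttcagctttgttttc
H1f5: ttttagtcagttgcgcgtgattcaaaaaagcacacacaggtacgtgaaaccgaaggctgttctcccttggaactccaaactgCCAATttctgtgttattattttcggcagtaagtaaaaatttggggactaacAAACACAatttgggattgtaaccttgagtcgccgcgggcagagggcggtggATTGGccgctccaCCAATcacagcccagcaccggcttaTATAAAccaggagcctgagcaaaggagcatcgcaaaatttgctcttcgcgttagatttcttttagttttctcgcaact
H1f2: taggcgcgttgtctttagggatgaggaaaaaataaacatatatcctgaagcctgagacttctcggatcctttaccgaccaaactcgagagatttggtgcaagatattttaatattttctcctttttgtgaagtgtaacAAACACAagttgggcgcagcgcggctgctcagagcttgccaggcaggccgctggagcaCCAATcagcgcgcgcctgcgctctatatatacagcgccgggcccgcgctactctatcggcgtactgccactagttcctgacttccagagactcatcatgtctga

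A window was found for 25 of the 28 genes, all but *H2ac14*, *H2bc21* and *H3c7*. CCAAT was present in 24 of 25 windows (96%), against 37.4% of all 32851 promoter windows of this length. TATAAA was present in 14 (56%, against 13.6%), counted at any position and on either strand. In the windows shown it lay before the start in *H1f5*, after the start in *H2ac15* (22 to 27) and on the opposite strand in *H2bc12* (-198 to -193). The octamer was present in 8 (32%, against 1.74%), and 5 of these were among the 7 H2B windows. The AC box was present in 7 (28%, against 7.18%), and 4 of these were among the 5 H1 windows. *H1f5* and *H1f2*, which moved in opposite directions between days, both held the AC box, at -117 to -111 and at -112 to -106 from the start, and a CCAAT box at -53 to -49 and at -54 to -50. The exact letters TATAAA were in the window of *H1f5* (-28 to -23) and not in that of *H1f2*. The window of *H1f2* held the letters TATATATA between its CCAAT box and the start, which the search did not count. The absence of TATAAA therefore does not show that *H1f2* lacks a TATA box. *H2bc12* and *H2bc18* held the octamer at -30 to -23 and at -48 to -41. Some windows overlap, since neighbouring genes are read from opposite strands of 1 short stretch: *H2ac12* and *H2bc12* share 277 bases and *H2ac1* and *H2bc1* share 220. The octamer counts of these pairs are thus not independent. No matches of different motifs overlapped. A match is a description of letters and not of a bound site.

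**Figure D1:**
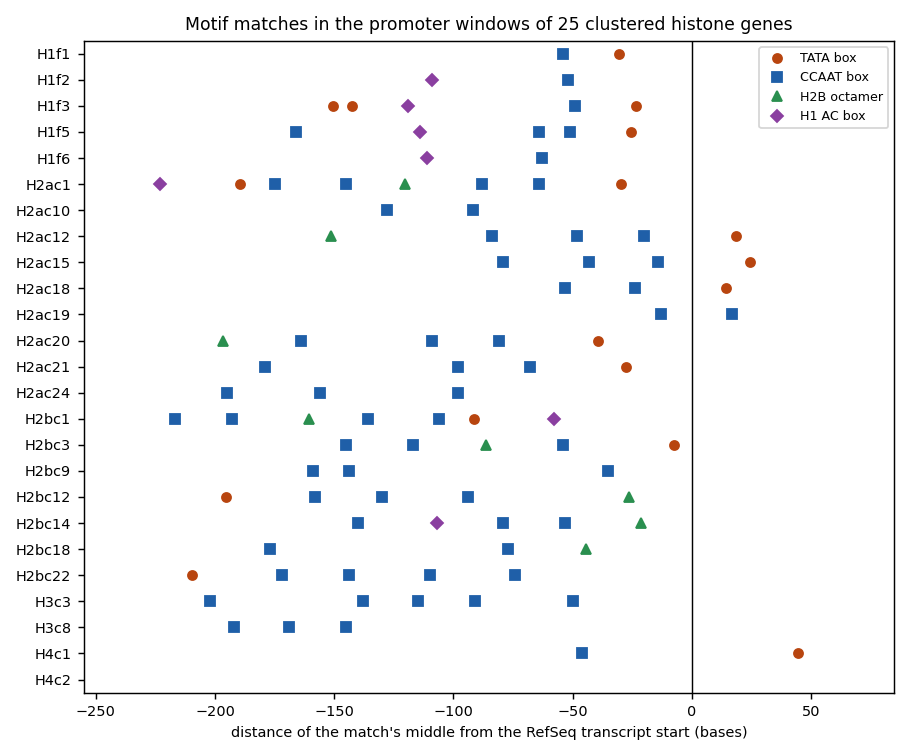
Positions of the 4 motifs in the promoter windows of the 25 clustered histone genes with a window, 1 row per gene. The horizontal axis is the distance of the middle of a match from the RefSeq transcript start in bases, and symbols mark the motif. The H2B octamer appears in 5 of 7 H2B rows and the AC box in 4 of 5 H1 rows, while CCAAT appears in all rows but that of *H4c2*.

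A gene was called above background on an array when it exceeded the brightest background probe set there, which lay between 5.84 and 7.02 on the 12 arrays. By this measure 6 of the 28 genes were above background on all 12 arrays, 21 on 3 or more, 3 on 1 or 2 (*H1f1*, *H2bc9* and *H4c1*) and 4 on none (*H1f6*, *H2ac12*, *H2ac24* and *H4c2*). The D2 arrays of experiment 1 stood apart. *Fabp4*, the fatty acid carrier of adipocytes, was at 7.33 (Ctrl-siRNA) and 6.79 (Paral1-siRNA) there, against 14.96, 14.67, 13.78 and 10.20 on the other D2 arrays, and *Mki67*, a marker of dividing cells, was at 8.39 and 8.61 against 11.42 to 12.98. The counts between days and the medians of the histone genes are therefore also given without experiment 1. All 8 adipocyte markers on the list used here were above background on at least 1 array, 7 of 8 were called higher at D9 than at D2 with Ctrl-siRNA, and all 6 endothelial and 4 of 7 macrophage markers were above background on no array.

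The expression of the clustered histone genes was first followed from differentiating cells to mature adipocytes. In Ctrl-siRNA cells most of them fell. At D9, 25 of 28 were lower than at D2, with a median log2 difference of -1.56 against -0.19 over all genes. In limma with Benjamini-Hochberg adjustment over all 30077 genes, 18 were called lower at an adjusted p under 0.05 (64.3%, against 26.1% of all genes) and 2 were called higher (7.14%, against 14.9% of all genes). These p-values measure the spread between arrays, which may be partly technical. In Paral1-siRNA cells 23 of 28 were lower, with a median of -1.10 against -0.16 over all genes, and 14 were called lower (50%, against 25.3%) and 1 higher (3.57%, against 14.5%). All 14 were also called lower with Ctrl-siRNA. In a population of cells, fewer cells expressing a gene and less mRNA per cell cannot be told apart.

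**Figure D2:**
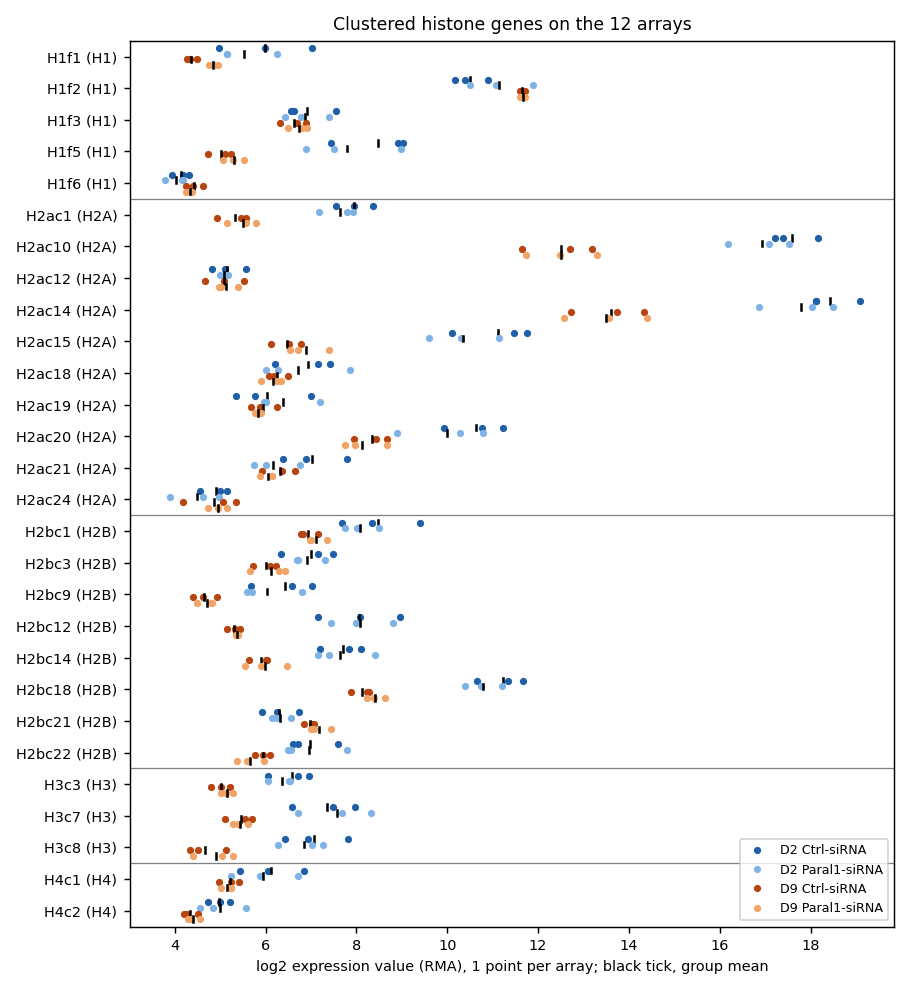
Level of the 28 clustered histone genes on each of the 12 arrays, grouped by class. The horizontal axis is the deposited log2 value, points are arrays coloured by group, and black ticks are group means (n = 3). *H2ac10* ran from 16.19 to 18.17 on the D2 arrays and from 11.65 to 13.30 on the D9 arrays, whereas *H1f2* ran from 11.60 to 11.72 on the D9 arrays and was as low as 10.17 at D2.

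The largest falls were those of H2A genes. *H2ac10* was at 17.39, 18.17 and 17.21 on the D2 Ctrl-siRNA arrays and at 11.65, 12.70 and 13.18 on the D9 Ctrl-siRNA arrays. The groups did not overlap, and the fall amounted to -5.08 ± 0.50 (SE of the limma fit, n = 3 arrays per group), or FC = 33.8 (adjusted p = 3.63e-05). *H2ac14* moved with it, from 18.12, 19.08 and 18.11 to 12.73, 13.75 and 14.34 (-4.83 ± 0.57, adjusted p = 0.000116). H2A genes of the clusters are near copies of each other in their coding parts, so a probe set assigned to *H2ac10* or *H2ac14* may also read others of the class, and which gene the signal came from is uncertain. *H2ac15* (*Hist1h2ak*) fell from 11.46, 11.76 and 10.11 to 6.12, 6.78 and 6.51 (-4.64 ± 0.47, FC = 24.9, adjusted p = 4.04e-05). It was above background on 2 of the 3 D9 Ctrl-siRNA arrays. *H2ac20*, of the smaller group of histone genes on chromosome 3, fell by 2.29 (± 0.48, adjusted p = 0.00371).

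The same H2A genes fell in Paral1-siRNA cells. *H2ac10* went from 17.09, 17.53 and 16.19 to 11.74, 12.49 and 13.30 (-4.42 ± 0.50, FC = 21.5, adjusted p = 9.56e-05). *H2ac14* went from 18.02, 18.49 and 16.87 to 12.56, 13.56 and 14.40 (-4.29 ± 0.57, adjusted p = 0.000257). *H2ac15* went from 11.13, 10.31 and 9.61 to 6.55, 6.72 and 7.40 (-3.46 ± 0.47, FC = 11.0, adjusted p = 0.000284). For none of the 3 did a D9 array reach the lowest D2 array. The probe sets of single H2A genes divided into those that fell and those that passed the test in neither group. *H2ac1*, *H2ac10*, *H2ac14*, *H2ac15* and *H2ac20* were called lower with both siRNAs, whereas *H2ac12*, *H2ac18*, *H2ac19*, *H2ac21* and *H2ac24* had differences of -0.71 to -0.04 with Ctrl-siRNA and of -0.56 to 0.45 with Paral1-siRNA. *H2ac12* and *H2ac24* were above background on no array, *H2ac18* on 7 and *H2ac19* on 3. A probe set assigned to both *H2ac18* and *H2ac19*, above background on all 12 arrays, was called lower with Ctrl-siRNA (-1.85, limma adjusted p = 0.00143). It was also called lower with Paral1-siRNA (-1.82, adjusted p = 0.00166). Of the 9 H2A probe sets assigned to several genes, 8 were called lower with Ctrl-siRNA. The division therefore does not show that the genes of its latter part stayed level.

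Among the H2B genes, 7 of 8 were called lower with Ctrl-siRNA and 5 of 8 with Paral1-siRNA, and the remaining gene, *H2bc21*, was called higher with both. *H2bc18* (*Hist2h2bb*) was at 11.66, 11.33 and 10.66 at D2 and at 7.89, 8.22 and 8.27 at D9 with Ctrl-siRNA (-3.09 ± 0.27, FC = 8.52, adjusted p = 1.32e-05). With Paral1-siRNA it was at 11.20, 10.74 and 10.40 and then at 8.38, 8.23 and 8.63 (-2.37 ± 0.27, adjusted p = 8.62e-05). It remained above background on every D9 array, so that this fold is not limited by the background. *H2bc12* (*Hist1h2bk*) fell from 8.95, 8.08 and 7.15 to 5.15, 5.44 and 5.33 with Ctrl-siRNA and from 8.80, 7.44 and 7.99 to 5.36, 5.36 and 5.39 with Paral1-siRNA. None of its D9 values was above background, and set against the background of the D9 arrays it was at least 3.67-fold lower with Ctrl-siRNA (adjusted p = 0.000549) and at least 3.16-fold lower with Paral1-siRNA (adjusted p = 0.000618). The other H2B genes called lower with Ctrl-siRNA were *H2bc14* (-1.82), *H2bc9* (-1.77), *H2bc1* (-1.55), *H2bc22* (-1.03) and *H2bc3* (-0.97). *H2bc1* and *H2bc3* did not pass with Paral1-siRNA (-0.98, adjusted p = 0.0514, and -0.78, adjusted p = 0.0713), and *H2bc1* passed with the experiment as a random block (adjusted p = 0.048).

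Linker histone genes went separate ways. *H1f5* (*Hist1h1b*) was at 9.03, 8.92 and 7.45 at D2 and at 4.73, 5.11 and 5.24 at D9 with Ctrl-siRNA, and at 8.98, 7.51 and 6.88 and then 5.07, 5.29 and 5.53 with Paral1-siRNA. All 6 D2 values were above background and no D9 value was, which makes it at least 4.85-fold lower with Ctrl-siRNA (-3.44 ± 0.52 as measured, adjusted p = 0.000543) and at least 2.6-fold lower with Paral1-siRNA (-2.50 ± 0.52, adjusted p = 0.00367). *H1f2* (*Hist1h1c*), the H1 gene known for polyadenylated mRNA, rose instead, from 10.91, 10.39 and 10.17 to 11.60, 11.64 and 11.72 with Ctrl-siRNA (1.16 ± 0.30, FC = 2.24, adjusted p = 0.0103). This call was lost after a second quantile normalization (0.80, adjusted p = 0.082). With Paral1-siRNA its D2 values were spread more widely, at 11.89, 10.50 and 11.07, against 11.60, 11.72 and 11.66 at D9, the groups overlapped, and the difference of 0.51 ± 0.30 did not pass the test (adjusted p = 0.196). *H1f1* was called lower with Ctrl-siRNA (-1.63 ± 0.44, adjusted p = 0.0133), with 1 D2 and no D9 Ctrl-siRNA array above background. *H1f3* had differences of -0.27 and -0.14 and *H1f6*, the testis H1, of 0.28 and 0.29, neither past the test.

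*H2bc21* (*Hist2h2be*), an H2B gene known for polyadenylated mRNA, was the other gene that rose. *Hist1h2bc*, another H2B gene listed as known for such mRNA, had no probe set of its own. The rises of *H1f2* and *H2bc21* therefore do not show what such genes do as a group. It was at 6.74, 6.26 and 5.92 at D2 and at 6.85, 7.06 and 7.03 at D9 with Ctrl-siRNA (0.67 ± 0.21, FC = 1.59, adjusted p = 0.0254), and at 6.57, 6.24 and 6.14 and then 7.06, 7.01 and 7.45 with Paral1-siRNA (0.85 ± 0.21, FC = 1.81, adjusted p = 0.00833). The days did not overlap with either siRNA, although the highest D2 and the lowest D9 Ctrl-siRNA arrays lay close together. The call with Ctrl-siRNA was lost in 11 of the alternative settings, with adjusted p of 0.0542 to 0.125. *H1f2* and *H2bc21* moved against the medians of their classes, and both lie in clusters that also hold genes that fell. *H2bc21* lies next to *H2ac20* on chromosome 3 (96221072 to 96223738 and 96220413 to 96220880).

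The H3 and H4 genes with probe sets of their own were few and dim. All 3 H3 genes were called lower with both siRNAs. *H3c8* was at 6.94, 7.82 and 6.43 at D2 and at 4.34, 4.52 and 5.14 at D9 with Ctrl-siRNA, which is at least 1.84-fold lower (-2.40 ± 0.39 as measured, adjusted p = 0.000863). *H3c7* was at least 2.24-fold lower (-1.90 ± 0.41, adjusted p = 0.00426). *H3c3* differed by -1.57 ± 0.23 as measured (adjusted p = 0.000439). It was above background on only 1 of the 3 D2 Ctrl-siRNA arrays and on no D9 array, so no fold is given for it. For H4, *H4c2* was called lower with Ctrl-siRNA (-0.65 ± 0.23, adjusted p = 0.0463) and *H4c1* was not (-0.91 ± 0.38, adjusted p = 0.0812). With the experiment as a random block this pair changed sides (adjusted p = 0.0735 and 0.0415). *H4c2* was above background on no array and its second probe set did not show the fall (0.07), so neither H4 gene gives a firm value. Of the 18 genes called lower with Ctrl-siRNA, 10 had no D9 Ctrl-siRNA array above background, and the same held for 9 of 14 with Paral1-siRNA. Their fitted differences are therefore limited by the background.

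The H2A and H2B genes known from testis, *H2ac1* (*Hist1h2aa*) and *H2bc1* (*Hist1h2ba*), gave signal in these cells at D2. *H2ac1* was at 8.37, 7.94 and 7.56 with Ctrl-siRNA at D2, above background on all 3 arrays, and at 4.93, 5.57 and 5.46 at D9, above background on none, which is at least 3.41-fold lower (adjusted p = 4.85e-05). *H2bc1* was above background on all 12 arrays. The probe sets may read other H2A and H2B genes, which was not tested. *H1f6* (*Hist1h1t*), the testis H1, stayed between 3.78 and 4.63 on all arrays, below background throughout.

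**Figure D3:**
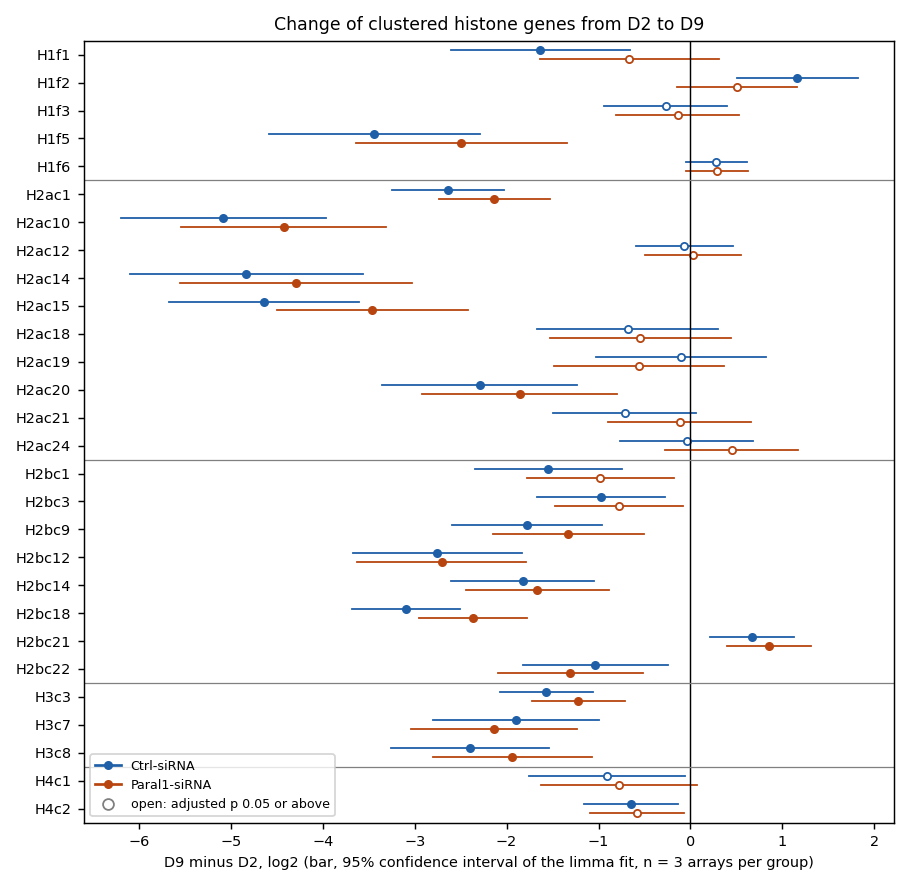
Difference between D9 and D2 for each clustered histone gene with Ctrl-siRNA (blue) and Paral1-siRNA (red-brown). The horizontal axis is the log2 difference, bars are 95% confidence intervals of the limma fit (n = 3 arrays per group) and open points have an adjusted p of 0.05 or above. *H2ac10*, *H2ac14* and *H2ac15* lie farthest to the left, and *H1f2* and *H2bc21* are the filled points on the right.

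By class, the median difference between days with Ctrl-siRNA was -0.27 for H1, -1.50 for H2A, -1.66 for H2B, -1.90 for H3 and -0.78 for H4, and with Paral1-siRNA it was -0.14, -1.21, -1.32, -1.94 and -0.68. The classes hold unequal numbers of genes, and no test between them was made. Without the arrays of experiment 1, 19 genes were called in place of 20 with Ctrl-siRNA and the median was -1.10, and 17 were called in place of 15 with Paral1-siRNA with a median of -0.83. When the median of each array was subtracted, the median of all genes moved from -0.19 to -0.06 with Ctrl-siRNA, and the genes lower at D9 numbered 22 in place of 25 (7 in place of 10 for H2A). The medians of all 5 classes kept their sign in both comparisons of days.

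The probe sets assigned to several histone genes of 1 class, 36 in number (9 for H2A, 9 for H2B, 7 for H3 and 11 for H4), give a second view, chosen after their values were seen. They read groups of 2 to 13 genes and no single member. With Ctrl-siRNA 35 of 36 were lower at D9 and 30 were called lower, against 26.1% of all 32649 probe sets with a symbol, with a median of -1.75. With Paral1-siRNA 33 were lower and 25 were called lower, against 25.4%, with a median of -1.60. For H4, where the probe sets of single genes were at background, 8 of 11 shared probe sets were called lower with Ctrl-siRNA (median -1.69) and 7 of 11 with Paral1-siRNA (median -1.55). All 7 shared H3 probe sets were called lower with Ctrl-siRNA (median -2.09). The largest fall was that of an H2A probe set, at -4.87 with Ctrl-siRNA. None of the 36 was called higher.

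Genes that act with the histones were followed next, as lists of their own. For comparison with their counts, 26.1% of all genes were called lower and 14.9% higher with Ctrl-siRNA. With Paral1-siRNA the shares of all genes were 25.3% and 14.5%. Of 8 histone genes outside the clusters, listed as replication-independent, 5 were called lower with Ctrl-siRNA. The largest fall was that of *H2ax*, from 11.96, 13.14 and 11.82 to 7.34, 7.53 and 7.27 (-4.93 ± 0.33, adjusted p = 2.41e-06). Its protein marks DNA breaks and its gene is known to give both kinds of mRNA. This fall can therefore not be assigned to replication-independent mRNA. *Cenpa* (-1.52), the H3 of centromeres, *H2az1* (-1.09), *Macroh2a2* (-0.89) and *H2aj* (-0.78) followed, while *Macroh2a1* was at 0.02. Of 11 genes for transcription and 3′ processing of histone mRNA, 5 were called lower and 1 higher. *Slbp*, the stem-loop binding protein, went from 7.50, 7.70 and 7.90 to 7.00, 6.96 and 7.11 (-0.68 ± 0.12, adjusted p = 0.00119), above background on all arrays. *Sympk* (-0.89) and *Eri1* (-0.76) were also called lower. So were *Lsm11* and *Zfp473*, but neither was above background on any Ctrl-siRNA array, and no fold is given for them. *Lsm10*, which with *Lsm11* belongs to the U7 particle that cuts histone pre-mRNA, was called higher (0.93 ± 0.28, adjusted p = 0.0224). *Npat*, which switches on histone transcription in S phase, did not pass (0.25 ± 0.47, adjusted p = 0.691).

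Of 18 genes for chaperones and acetylation of new histones, 13 were called lower and 1 higher with Ctrl-siRNA. They included *Chaf1a* (-2.51), the large subunit of the assembly factor CAF-1, and *Asf1b* (-2.38), and also *Mms22l*, which was above background on no D9 array and at least 3.56-fold lower. *Daxx*, a chaperone of the replication-independent H3.3, was called higher (1.91 ± 0.15, adjusted p = 6.75e-06). Of 21 genes for S phase and replication, 19 were called lower and none higher, with a median of -2.15. They included *Rrm2*, a subunit of ribonucleotide reductase (-4.43, with 1 D9 Ctrl-siRNA array above background), *Ccna2*, cyclin A2 (-4.22), and the helicase subunit *Mcm6* (-3.47). *Mcm5*, another helicase subunit, was above background on no D9 array and at least 6.99-fold lower. With Paral1-siRNA the counts called lower and higher were 5 and 0 of 8, 4 and 2 of 11, 12 and 1 of 18, and 17 and 0 of 21. Of the 5 dividing-cell markers, which share *Ccna2* and *Pcna* with the replication list, all were called lower with Ctrl-siRNA (summed log2 level 49.5 to 58.8 at D2 and 35.4 to 40 at D9) and 4 with Paral1-siRNA (48.6 to 57.5 and 36.1 to 42.2). Their part in the histone values was not tested. All lists are described by their counts only.

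Next, Paral1-siRNA was compared with Ctrl-siRNA within each day, to ask whether the histone genes responded to the siRNA. At D2 no clustered histone gene was called by limma (0 of 28, and 0% of all genes), none had an unadjusted p under 0.05, and the methods' t-test called none before or after adjustment. With the experiment as a block 9 were lower (32.1%, against 6% of all genes) and 2 higher (7.14%, against 5.61%) at an unadjusted p under 0.05, and the lowest adjusted p was 0.339. By sign, 22 of 28 were lower with Paral1-siRNA, with a median of -0.21 against 0.02 over all genes. Within experiments 1, 2 and 3 the median was -0.14, -0.46 and -0.12. In all 3 experiments 11 were lower (39.3%, against 14.5% of all genes) and 3 higher (10.7%, against 18.8%). For no gene were the Paral1-siRNA and Ctrl-siRNA arrays without overlap, against 5.17% of all genes. In the fit without the block the half-width of the 95% interval ran from 0.413 to 1.57. With the block the SE was smaller for every gene, for example 0.11 in place of 0.42 for *H2ac21* and 0.163 in place of 0.171 for *H1f6*.

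At D2 the H2A genes had the lowest class median, at -0.53, with 9 of 10 lower and 6 lower in all 3 experiments. *H2ac21* (*Hist2h2ab*) was at 7.79, 6.90 and 6.39 with Ctrl-siRNA and at 6.75, 6.00 and 5.74 with Paral1-siRNA, that is -1.03, -0.89 and -0.65 within the experiments (mean -0.86 ± 0.42). *H2ac15* differed by -0.33, -1.45 and -0.50 (mean -0.76 ± 0.55) and *H2ac10* by -0.30, -0.64 and -1.02 (mean -0.65 ± 0.41). For all 3 the range over the experiments within a group was larger than the difference, and the groups overlapped. *H1f5* differed by -0.04, -1.41 and -0.57 (mean -0.67 ± 0.65), and nearly all of its mean came from experiments 2 and 3. *H1f2* was the gene with the largest difference upwards, at 0.98, 0.10 and 0.89 (mean 0.66 ± 0.38). *H2ac19* (0.35) and *H3c7* (0.22) were also higher in all 3 experiments, and both had the opposite sign when the Ctrl-siRNA array of experiment 3 (-0.0041 and -0.16) or the Paral1-siRNA array of experiment 1 (-0.06 and -0.15) was left out. The class medians were -0.10 for H1, -0.08 for H2B, -0.21 for H3 and -0.09 for H4.

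Other lists moved at D2 as well. All 21 S phase genes were lower with Paral1-siRNA (median -0.38, 14 lower in all 3 experiments, none called by limma and 1 with an unadjusted p under 0.05), and all 8 adipocyte markers were lower (median -1.56, none called). With the experiment as a block, 12 of 21 S phase genes were lower at an unadjusted p under 0.05 (limma), against 6% of all genes. The same held for 7 of 8 adipocyte markers and 1 of 5 dividing-cell markers, and none was called after adjustment. The summed log2 level of the 5 dividing-cell markers ran from 49.5 to 58.8 on the Ctrl-siRNA and from 48.6 to 57.5 on the Paral1-siRNA arrays at D2, and that of the adipocyte markers from 63.9 to 99.9 and from 59.4 to 88.4. Their part in the histone values was not tested. Without experiment 1 the median of the histone genes at D2 was -0.25. Leaving out 1 array at a time, which breaks a pair and so adds the difference between experiments, moved it between -0.52 (Ctrl-siRNA of experiment 3 left out) and -0.00015 (Ctrl-siRNA of experiment 1 left out). With both arrays of an experiment left out it ran from -0.29 to -0.16. Subtracting the median of each array gave 25 lower in place of 22 (median -0.26, against -0.03 over all genes). It also moved the count over all 30077 genes, from 13609 to 17936 lower.

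**Figure D4:**
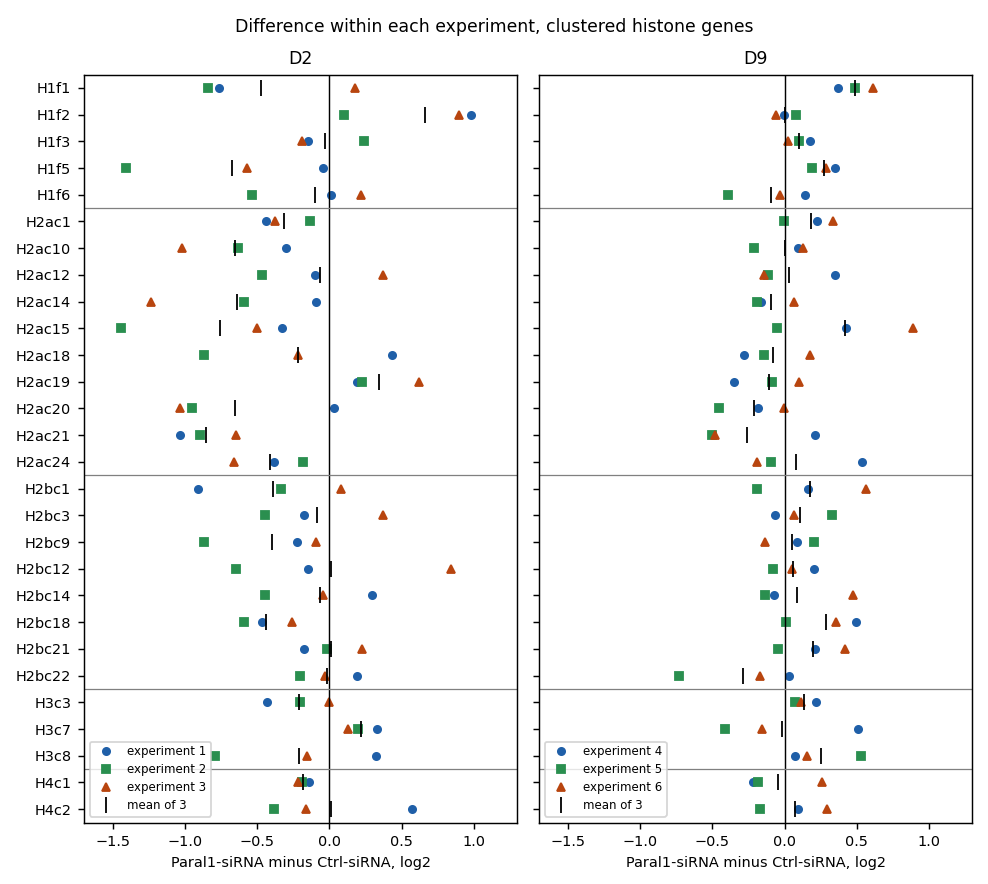
Paral1-siRNA minus Ctrl-siRNA within each experiment for the 28 clustered histone genes, at D2 (left) and D9 (right). The horizontal axis is the log2 difference, symbols are experiments and black ticks are the means of 3. At D2 the points lie from -1.45 to 0.98 with 22 of 28 means below 0, and at D9 they lie closer to 0 with 19 of 28 means above it.

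At D9 the differences were smaller and mostly of the other sign. Again no gene was called (0 of 28, and 0% of all genes) after adjustment, by limma with or without the block or by the methods' t-test. At an unadjusted p under 0.05, limma without the block and the methods' t-test each passed 1 gene, and limma with the block 2 (7.14%, against 3.17% of all genes), all higher. By sign, 19 of 28 were higher with Paral1-siRNA, as were 16388 of all 30077 genes. The median was 0.07 against 0.02 over all genes, and 0.15, -0.09 and 0.11 within experiments 4, 5 and 6. With the median of each array subtracted, 16 were higher (median 0.02, against -0.03 over all genes). After a second quantile normalization 17 were higher (median 0.04, against 0.002). In all 3 experiments 6 were higher (21.4%, against 16.5% of all genes) and 1 lower (3.57%, against 13%). *H1f1* was the gene with the largest difference: 4.49, 4.26 and 4.34 with Ctrl-siRNA and 4.86, 4.75 and 4.95 with Paral1-siRNA (0.49 ± 0.11, adjusted p = 1.0 in limma). It was the 1 gene of 28 whose groups did not overlap, against 7.15% of all genes, and the exact permutation p of 0.1 is the smallest that 3 arrays against 3 allow. All of these values were below background. *H2bc18* (0.29 ± 0.15), *H1f5* (0.27 ± 0.18) and *H3c8* (0.25 ± 0.29) were also higher in all 3 experiments, with *H2bc18* alone of these above background at D9, and *H2ac20* (-0.21 ± 0.29) was lower. *H2ac10*, with the largest fall between days, was at 0.00 ± 0.51, and the half-widths of the 95% intervals ran from 0.209 to 1.36. The class medians were 0.10 for H1, -0.04 for H2A, 0.10 for H2B, 0.13 for H3 and 0.01 for H4, and that of H4 was -0.03 when the median of each array was subtracted and -0.04 after a second quantile normalization.

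The difference between the effect of Paral1-siRNA at D9 and at D2 was then tested as an interaction over all 12 arrays. It was positive for 24 of 28 genes (median 0.27, against 0.01 over all genes), and none was called (0% of all genes, limma), without an unadjusted p under 0.05. With the experiment as a random block 5 positive differences (17.9%, against 3.16% of all genes) and 1 negative (3.57%, against 3.13%) had an unadjusted p under 0.05, and the lowest adjusted p was 0.689. It was 1.18 ± 0.66 for *H2ac15* and -0.66 ± 0.42 for *H1f2*. *H1f1* (0.97 ± 0.62) and *H1f5* (0.95 ± 0.73) also had large values, but neither was above background on any D9 array. Without experiment 1 the median was 0.34. A change of the effect between days was not detectable for any single gene. The shared probe sets had the same signs, with 24 of 36 lower at D2 (median -0.27), 27 of 36 higher at D9 (median 0.14) and none called on either day.

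The levels also differed between the experiments of a group. Among the D2 arrays, experiment 3 held the lowest value for 27 of 28 histone genes with Ctrl-siRNA (96.4%, against 39.1% of all genes) and for 22 with Paral1-siRNA (78.6%, against 33.3%). Experiment 1 held the highest value for 19 genes with Ctrl-siRNA (67.9%, against 65.1% of all genes) and for 24 with Paral1-siRNA (85.7%, against 59.7%). The median deviation of the 28 genes from their own mean over the 12 arrays was 1.27, 0.75 and 0.10 on the Ctrl-siRNA arrays of experiments 1, 2 and 3 and 1.24, 0.26 and 0.12 on the Paral1-siRNA arrays. The replication genes did not share this order. Of the 21 S phase genes, 19 were lowest in experiment 1 with Ctrl-siRNA and 13 with Paral1-siRNA, and 17 and 19 were highest in experiment 2. The share of histone genes highest in experiment 1 was near that of all genes with Ctrl-siRNA, and these are orders of 3 experiments, given as a description. At D9 experiment 4 held the lowest value for 22 of 28 histone genes with Ctrl-siRNA (78.6%, against 33.7% of all genes) and for 18 with Paral1-siRNA (64.3%, against 31%), and for 11 of 21 S phase genes in both groups. The median deviations of the histone genes at D9 ran from -0.80 to -0.44.

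**Figure D5:**
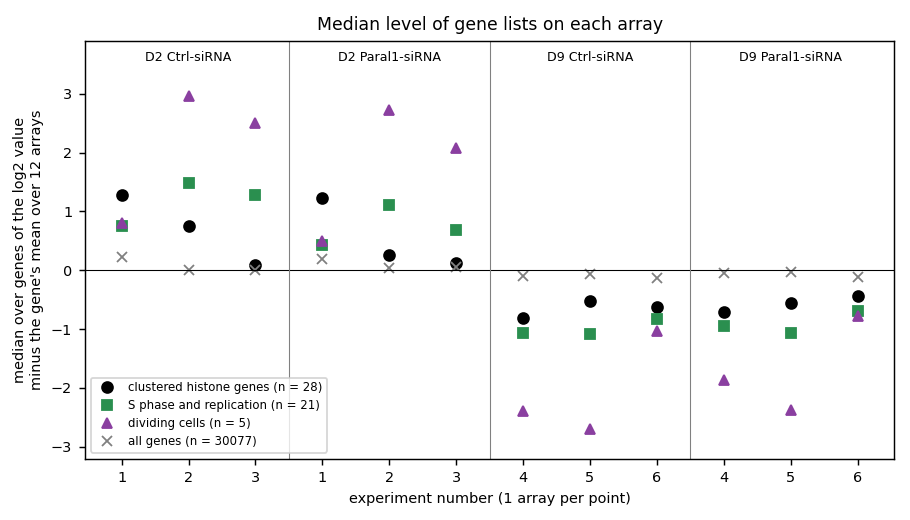
Median deviation of 4 gene lists on each array from the mean of each gene over the 12 arrays. The horizontal axis gives the experiment number within each group and the vertical axis the median log2 deviation, with 1 point per array and list. The histone genes lie at 1.27 and 1.24 in experiment 1 and near 0.1 in experiment 3, whereas the S phase and dividing-cell lists lie lowest at D2 in experiment 1.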

How the data were processed

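Total RNA of 12 3T3-L1 samples was amplified by random priming and hybridized to 12 one-colour arrays. The authors applied GC count normalization and signal space transformation in Affymetrix Expression Console 1.4.1 and then RMA, and deposited log2 values for each probe set. The deposited log2 values were used without further normalization, so that differences are log2 fold changes. The median over all genes ran from 5.21 to 5.53 on the 12 arrays. What is called a second quantile normalization was applied to these values as an alternative, and the paper does not name an earlier one. Arrays give no read depth, and their number limits the precision. For the genome build behind the probe sets, nothing is given in the sources used here, and positions and promoters are those of RefSeq (GRCm38.p6).

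Of the 65770 transcript clusters, 30473 had 1 gene symbol in the platform annotation and 2176 several. The brightest probe set was kept per gene, which gave 30077 genes, 284 of them under an updated symbol. No column of other samples was present. Groups came from the sample labels. Comparisons were fitted with limma 3.58.1 in R 4.3.3 (lmFit and eBayes, Benjamini-Hochberg adjustment over all 30077 genes), over the 6 arrays of a day for the siRNAs and over all 12 arrays for the days and the interaction. The scripts were tested on simulated data. Experiment numbers paired the arrays, since deviations from the group means correlated at 0.72 to 0.87 between arrays of the same experiment and at -0.80 to 0.42 between others (11724 genes). The fits were therefore repeated with the experiment as a block.

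A level below the brightest background probe set of an array was taken as not above background. Where all D9 arrays of a group were below it, the fold is a lower bound, the D2 mean against the mean of, per array, the higher of that brightest background value and the gene's own. Named genes were the highest and lowest of each class, those with the largest differences moving the same way in all 3 experiments or past the test, the genes known from testis or for polyadenylated mRNA, a gene whose probe sets disagree (*H4c2*), and up to 4 genes of each list. The members and lists were chosen with earlier results of these data known. Without a probe set of their own were *H1f0*, *H3f3a*, *H3f3b*, *Coil*, *Hira*, *Hjurp*, *Ssrp1*, *Mcm7*, *Pdgfra*, *Ccnb1* and *Hist1h2bc*. The summed log2 level of the other marker lists over the group means ran from 52.2 to 53.6 for preadipocytes, from 33.8 to 36.1 for macrophages and from 25.1 to 27.2 for endothelium. Alternatives were the block, a second quantile normalization, subtraction of each array's median, leaving out dim genes, other probe set choices, eBayes with trend and robust, array weights, the methods' t-test, and leaving out arrays or experiments.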

Additional observations from a re-analysis of the deposited data

Results flagged for a closer look

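For 3 genes every experiment of one day moved one way with Paral1-siRNA and every experiment of the other day the opposite way. *H1f5* was lower in all 3 experiments at D2 (mean -0.67) and higher in all 3 at D9 (mean 0.27), a difference between the days of 0.95. *H2bc18* was at -0.44 and 0.29, a difference of 0.73. *H3c3* was at -0.21 and 0.13, a difference of 0.35. For each gene the agreement of signs includes 1 very small difference. These were -0.04 for *H1f5* (D2, experiment 1), 0.0059 for *H2bc18* (D9, experiment 5) and -0.00051 for *H3c3* (D2, experiment 3). The share of all genes with such a reversal is not given, so the count of 3 has no comparison. *H1f5* and *H3c3* were above background on no D9 array, so that their D9 values and these differences are not firm. In the interaction test of limma none of the 3 differences passed (adjusted p = 1.0 for each).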

How the results depend on the processing

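Over the alternatives, the counts of called genes stayed within 1.5 times their values and the medians within 1 SD, except as follows. The methods' t-test with adjustment called 12 genes between days with Ctrl-siRNA (11 lower) in place of 20, and 10 with Paral1-siRNA in place of 15. Before adjustment it passed 17 (16 lower) and 16 (15 lower). At D2, the median of the siRNA differences was -0.516 with Ctrl-siRNA of experiment 3 left out and -0.452 with Paral1-siRNA of experiment 1 left out, within a range of -0.516 to -0.00015. *H2ac19* and *H3c7* were at -0.0041 and -0.16 in the former and at -0.059 and -0.151 in the latter, and ranged up to 0.828 and 0.644 with other arrays left out. With 1 array or both arrays of an experiment left out, the genes called between days numbered 14 to 21 with Ctrl-siRNA and 12 to 19 with Paral1-siRNA. With the experiment as a random replicate block, 20 and 16 genes were called between days, and no calls changed but those of *H4c1* and *H4c2* with Ctrl-siRNA and of *H2bc1* with Paral1-siRNA. The siRNA comparisons called 0 with either block. *H1f2* lost its call with Ctrl-siRNA after a second quantile normalization (0.80, adjusted p = 0.082) and without experiment 3 (0.053) or 6 (0.0513), *H1f5* its call with Paral1-siRNA by the methods' t-test (adjusted p = 0.0587), and *H2bc21* its call with Paral1-siRNA without experiment 6 (adjusted p = 0.0555). The cause was not tested. Signal over background limits 10 of the 18 falls with Ctrl-siRNA to lower bounds or to no fold.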
